A study of Mus musculus with 6 samples.

Results

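Integrins and the adaptor proteins of focal adhesions were followed as 33 genes: 21 integrin subunits and 12 adaptors, kinases and scaffold proteins. Members were chosen by gene symbol, and each was represented by its brightest array row that the platform annotation gives to 1 gene. Such a row was found for 32 of the 33, among 19938 named genes in all. The exception was Ptk2, the gene of focal adhesion kinase, which was not analysed here.

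An integrin is a receptor made of 1 alpha and 1 beta subunit that binds extracellular matrix outside the cell and the actin cytoskeleton inside it. The pair of subunits sets the ligand, and talin and kindlins bind the tail of the beta subunit to switch the receptor on. Clustered receptors gather the kinase-like ILK with its partners PINCH and parvin, the kinases FAK and Src, and scaffolds such as paxillin and p130Cas into focal adhesions. Mouse embryonic stem cells hold on to matrix largely through beta1 integrins and the laminin receptor built on alpha6.

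The samples were E14 mouse embryonic stem cells with Tdg knockdown (3 arrays) and control E14 cells (3 arrays). Tdg encodes thymine DNA glycosylase, which excises oxidised forms of methylcytosine made by TET enzymes. All cells grew without a named feeder layer on 0.1% gelatin, which is denatured collagen, in medium with 15% serum and 1000 units/ml of the self-renewal cytokine LIF. The labels' protocol describes lentiviral infection at a multiplicity of 10 and puromycin at 2 ug/ml from 48 h on. The labels give neither the knockdown sequence nor the content of the control vector, and nothing in them says that the 3 arrays of a group are separate cultures. The p-values therefore refer to array-to-array spread, part or all of which may be technical. The extraction protocol names Kdm2b knockdown cells where titles and design name Tdg.

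Values are log2 signals of Affymetrix whole-transcript arrays, with a median per array of 7.41 to 7.48. Signal of the 4 rows that list Tdg together with its pseudogene Tdg-ps2 averaged 8.11 ± 0.16 in knockdown and 11.14 ± 0.05 in control cells (SD, n = 3 each), which left 12.2% of the control level. None of 10 pluripotency markers passed the test of knockdown against control, which compares the groups and does not test stem cell identity. Pou5f1, the gene of OCT4, had 12.53, 12.62 and 12.59 in knockdown against 12.51, 12.56 and 12.55 in control cells. Knockdown replicate 3 stood apart from the other arrays, at 31.0 on a first principal component that held 58.6% of the variance, where the others lay between -17.5 and 5.2. For many members the difference without this array is given too.

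With limma and Benjamini-Hochberg adjustment over all named genes (threshold 0.05), 1 of the 32 measured members passed, the collagen receptor subunit Itga1, which rose. None fell past the threshold, although the fibronectin and vitronectin receptor subunit Itgav and the laminin receptor subunit Itga3 lay just outside it. Across all named genes 0.792% passed, 0.241% higher and 0.552% lower. When the replicate number of the titles was added to the model as a block, 6 members passed: Itga1, Itgb7 and Tns3 were higher, and Itgav, Itga3 and Fermt1 were lower. With that block 3.08% of all genes passed, 1.07% higher and 2.01% lower. No label says what arrays of equal number share, so the blocked values hold only if those arrays are paired.

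The members' changes were small, from -0.51 to 0.55 on the log2 scale, with a median of -0.07 against 0.017 for all genes. Of the 32, 13 lay above 0 and 19 below it, where 56.4% of all genes lay above 0. The knockdown and control arrays did not overlap for 16 members, 6 higher and 10 lower, where the same held for 19% of all genes (7.98% higher and 11% lower). Before adjustment, p was under 0.05 for 13 members, 5 higher and 8 lower, against 12.5% of all genes. These shares describe the members, which were chosen with earlier results of these data known.

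**Figure D1:**
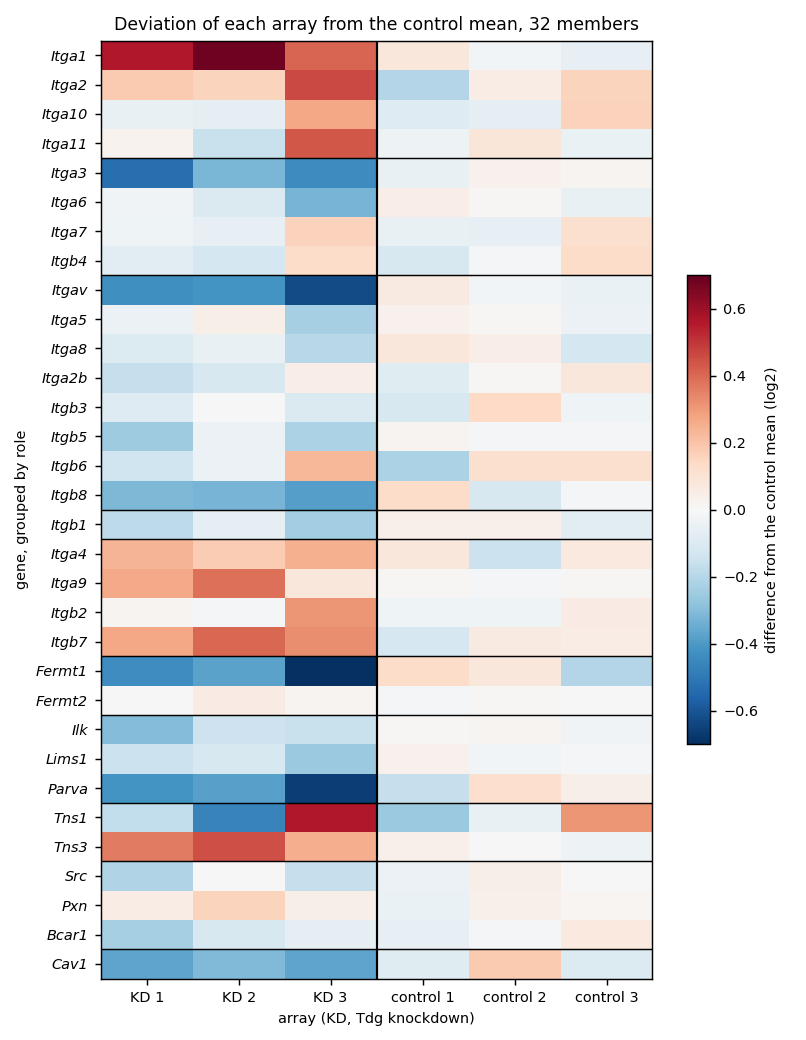
Heat map of the 32 measured members (rows, grouped by role and parted by lines) on the 6 arrays (columns, knockdown left of control), coloured by the difference from the control mean on the log2 scale. Itga1 and Tns3 are red and Itgav, Itga3, Fermt1 and Parva blue on all 3 knockdown arrays, while Tns1 is blue on knockdown replicates 1 and 2 and red on replicate 3.

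Among the alpha subunits of collagen receptors, Itga1 rose and the other members did not pass. Itga1 encodes alpha1, which pairs with beta1 and binds collagen IV and other collagens. Its signal was 7.83, 7.95 and 7.68 in knockdown cells, against 7.35, 7.25 and 7.21 in control cells. Every knockdown array lay above every control array. The difference was 0.55 (SE 0.09, 95% interval 0.35 to 0.75), a 1.46-fold higher signal, with an adjusted p of 0.0464, or 0.0238 with the replicate block. That call rested on the full set of arrays: the adjusted p was 0.0185 without knockdown replicate 3, but 0.114 to 0.253 without any other single array, with differences of 0.49 to 0.62 over the 6 refits. After each array was centred on its median it was 0.0535, with all 35557 rows tested it was 0.135, and with the block but without both arrays numbered 3 it was 0.281. The row lies close to the array medians, and signal over background was not analysed here.

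The gene Pelo, which encodes a ribosome rescue factor, lies within Itga1 in the RefSeq annotation, and was looked up after the values of Itga1 had been seen. It had 7.99, 8.04 and 8.22 in knockdown against 7.79, 8.22 and 8.13 in control cells. These ranges overlapped, and the difference was 0.037 (SE 0.12, adjusted p 0.934). Itga2, the gene of the other widely used collagen receptor subunit, had 6.06, 6.03 and 6.34 in knockdown and 5.67, 5.93 and 6.03 in control cells. The difference of 0.27 (95% interval -0.021 to 0.55) did not pass, with an adjusted p of 0.439, and was 0.168 without knockdown replicate 3. Itga10 and Itga11, which encode collagen receptor subunits best known from cartilage and connective tissue, differed by 0.05 (95% interval -0.22 to 0.32) and 0.10 (-0.24 to 0.44). Both turned negative without knockdown replicate 3, at -0.06 for Itga10 and -0.067 for Itga11.

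Of the laminin receptor subunits, Itga3 was lower, short of the threshold without the block. Itga3 encodes alpha3, which pairs with beta1 and binds laminins of epithelial basement membranes. It had 9.49, 9.70 and 9.58 in knockdown cells, against 9.97, 10.05 and 10.04 in control cells. All knockdown values lay below all control values, by 0.43 on average (SE 0.07, 95% interval -0.60 to -0.26). The adjusted p was 0.0575, or 0.0277 with the block, and ranged from 0.0616 without knockdown replicate 3 to 0.317 without control replicate 2. Remaining signal was 74.2% of the control level.

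Itga6, the laminin receptor subunit also used to recognise stem cells, had 11.38, 11.30 and 11.08 in knockdown and 11.45, 11.41 and 11.35 in control cells. The difference of -0.15 did not pass (95% interval -0.36 to 0.061, adjusted p 0.584), and knockdown replicate 3 gave the lowest value. Without that array the difference was -0.063. Itgb4, whose product joins alpha6 in hemidesmosomes, differed by -0.023 (95% interval -0.25 to 0.20). Itga7, a laminin receptor subunit of muscle, differed by 0.023 (-0.18 to 0.23). Neither of these passed, and for both the groups overlapped. Without knockdown replicate 3 they were -0.098 for Itgb4 and -0.045 for Itga7.

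The subunits of receptors for fibronectin, vitronectin and latent TGF-beta had values below 0 for 7 of 8 members, with a median of -0.095. Itgav encodes alphav, the shared alpha subunit of the beta3, beta5, beta6 and beta8 receptors. It had 10.07, 10.08 and 9.87 in knockdown against 10.56, 10.48 and 10.45 in control cells. The groups did not overlap, and the difference was -0.49 (SE 0.08, 95% interval -0.68 to -0.30), which left 71.2% of the control signal. Its adjusted p of 0.0504 missed the threshold, and was 0.0238 with the block and 0.0337 without knockdown replicate 3. The difference without that array was -0.42. Leaving out any other single array gave an adjusted p of 0.111 to 0.253.

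Itgb8, whose product joins alphav and can activate latent TGF-beta, had 6.64, 6.63 and 6.57 in knockdown against 7.08, 6.84 and 6.94 in control cells. These groups did not overlap either, but the difference of -0.34 (95% interval -0.52 to -0.16) had an adjusted p of 0.117, or 0.0542 with the block. Itgb5, another partner of alphav, had 10.17, 10.38 and 10.20 in knockdown and 10.44, 10.41 and 10.41 in control cells, a difference of -0.17 (95% interval -0.34 to 0.0047) that did not pass. Itgb3, the partner of alphav and of the platelet subunit, differed by -0.063, and Itgb6, an epithelial partner of alphav, by 0.017. Neither passed, and Itgb6 was at -0.09 without knockdown replicate 3.

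Itga5 encodes the alpha subunit of the main fibronectin receptor. It had 10.42, 10.50 and 10.23 in knockdown and 10.49, 10.47 and 10.42 in control cells, which overlap. The difference was -0.077 (95% interval -0.27 to 0.12, adjusted p 0.782), and it was 0 without knockdown replicate 3. Itga8, a receptor subunit for nephronectin in the developing kidney, differed by -0.11, and Itga2b, the platelet alpha subunit, by -0.077, neither past the threshold. Without knockdown replicate 3 they were -0.073 for Itga8 and -0.14 for Itga2b. Itgb1, the beta subunit shared by most of these receptors, had 10.57, 10.69 and 10.51 in knockdown and 10.79, 10.79 and 10.68 in control cells. Control replicate 3 lay just under knockdown replicate 2, and the difference of -0.16 (95% interval -0.34 to 0.0091) had an adjusted p of 0.429.

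All 4 members from leukocyte-type and VCAM1-binding integrins had values above 0, with a median of 0.23, and none passed without the block. Itgb7, whose product pairs with alpha4 or alphaE on lymphocytes, had 8.20, 8.33 and 8.25 in knockdown against 7.81, 7.99 and 7.98 in control cells. The groups did not overlap, and the difference of 0.33 (SE 0.08, 95% interval 0.15 to 0.51) had an adjusted p of 0.117, or 0.0403 with the block. Itga9, a receptor subunit for tenascin and VCAM1, had 8.90, 9.02 and 8.71 in knockdown and 8.64, 8.62 and 8.64 in control cells, a difference of 0.24 (adjusted p 0.310). Without knockdown replicate 3 the difference of Itga9 was 0.33. Itga4, which binds VCAM1 and fibronectin, had 6.48, 6.42 and 6.49 in knockdown and 6.32, 6.09 and 6.31 in control cells, a difference of 0.22 (adjusted p 0.311). Itgb2, the beta subunit of leukocyte integrins, differed by 0.11 with overlapping groups, and by 0.005 without knockdown replicate 3.

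The 6 integrin genes outside the members (Itgae, Itgal, Itgam, Itgax and Itgad of leukocytes and the integrin-like Itgbl1) had values above 0 as well, with a median of 0.093. None of these genes passed with or without the block. For each of them knockdown replicate 3 gave the highest value of all arrays. Knockdown replicates 1 and 2 both lay above the control mean for Itgal and Itgad. They lay below it for Itgae (6.53 and 6.53 against 6.60) and Itgam (6.01 and 6.08 against 6.10). For Itgax (5.77 and 5.68 against 5.72) and Itgbl1 (5.83 and 5.51 against 5.78) they lay on either side. The smallest p were those of Itgal, the alpha subunit of LFA-1 (a difference of 0.19, adjusted p 0.357), and Itgad (0.18, adjusted p 0.678). The summed signal of 8 endothelial and blood cell markers was 1834 to 1955 on the linear scale in knockdown and 1900 to 1940 in control arrays, and none of these markers passed. Of the 8, 6 lay above 0, as the leukocyte-type integrins did, with a list median of 0.085, among them Gp9 (0.18), Ptprc (0.15), Kdr (0.14) and Spi1 (0.12). The 2 below 0 were Tek (-0.03) and Cd68 (-0.10), whose signals are high enough to weigh most in the sum. The part of these markers in the integrin values was not tested. The array gives no value of 0, so absence of a marker cannot be read from it.

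**Figure D2:**
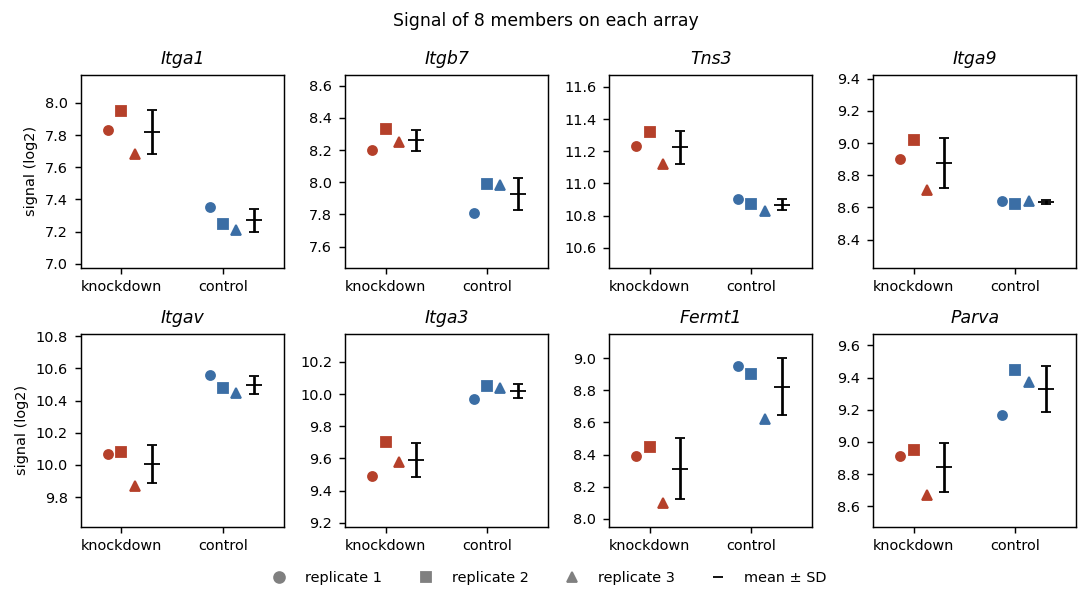
Signal (log2, vertical axis, 1.2 units high in each panel) of 8 members on each knockdown and control array, with symbols for the replicate number and bars for the mean and SD of 3 arrays. In every panel the 3 knockdown arrays lie on the same side of the 3 control arrays, above them in the upper row and below them in the lower row.

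Kindlins bind the tail of beta integrins and activate the receptor together with talin. Fermt1, the epithelial kindlin-1, had 8.39, 8.45 and 8.10 in knockdown against 8.95, 8.90 and 8.62 in control cells. The groups did not overlap, and within each number the knockdown array was lower by 0.56, 0.45 and 0.52. The difference was -0.51 (SE 0.12, 95% interval -0.80 to -0.22), with an adjusted p of 0.134, or 0.0198 with the block, the smallest blocked value among the members. In both groups the array numbered 3 was the lowest, and without knockdown replicate 3 the difference was -0.40. Fermt2, the kindlin-2 found in most adherent cells, had 11.47, 11.53 and 11.49 in knockdown and 11.46, 11.48 and 11.47 in control cells, a difference of 0.027 with a 95% interval of -0.11 to 0.16.

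ILK, PINCH-1 and alpha-parvin form 1 complex that couples integrins to actin. All 3 genes had lower signal without overlap between the groups, as 11% of all named genes did, and none passed the test. Parva, the gene of alpha-parvin, had 8.91, 8.95 and 8.67 in knockdown against 9.17, 9.45 and 9.37 in control cells. Its difference of -0.49 (SE 0.11, 95% interval -0.74 to -0.24) had an adjusted p of 0.102, or 0.0506 with the block. The difference of Parva was -0.40 without knockdown replicate 3. Ilk had 10.04, 10.20 and 10.19 in knockdown and 10.35, 10.36 and 10.32 in control cells, a difference of -0.20 (95% interval -0.36 to -0.040, adjusted p 0.281). Lims1, the gene of PINCH-1, had 10.81, 10.85 and 10.70 in knockdown and 10.99, 10.94 and 10.95 in control cells, a difference of -0.17 (95% interval -0.33 to -0.019, adjusted p 0.340).

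Tensins link beta integrin tails to actin. Tns3 had 11.23, 11.32 and 11.12 in knockdown against 10.90, 10.87 and 10.83 in control cells, with no overlap. The difference of 0.36 (SE 0.07, 95% interval 0.19 to 0.53) was 1.28-fold, with an adjusted p of 0.0857, or 0.0393 with the block and 0.0367 without knockdown replicate 3. Tns1 was the most variable member within groups. Its brightest row had 9.50, 9.20 and 10.23 in knockdown and 9.41, 9.62 and 9.98 in control cells, so the arrays numbered 3 were the highest of both groups and the difference of -0.027 had an interval of -0.65 to 0.60. Without knockdown replicate 3 it was -0.32, which did not pass either. The other 5 rows of Tns1 differed by -0.15 to 0.01. No other member had more than 1 row of its own.

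Of the scaffolds and kinases, Pxn, Bcar1 and Src did not pass the threshold. Pxn, the gene of paxillin, had 10.36, 10.46 and 10.35 in knockdown and 10.26, 10.34 and 10.32 in control cells. The groups did not overlap, and the difference of 0.083 had a 95% interval of -0.067 to 0.23 and did not pass. Bcar1, the gene of p130Cas, differed by -0.14 (95% interval -0.31 to 0.032), also without overlap. The kinase gene Src differed by -0.12 (-0.30 to 0.053) with overlapping groups, and neither of these 2 passed. Cav1, whose product caveolin-1 forms caveolae and binds integrin signalling complexes, had 6.97, 7.03 and 6.97 in knockdown against 7.25, 7.52 and 7.24 in control cells. The groups did not overlap, but the difference of -0.35 (SE 0.09, 95% interval -0.56 to -0.14) had an adjusted p of 0.154, or 0.0542 with the block.

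**Figure D3:**
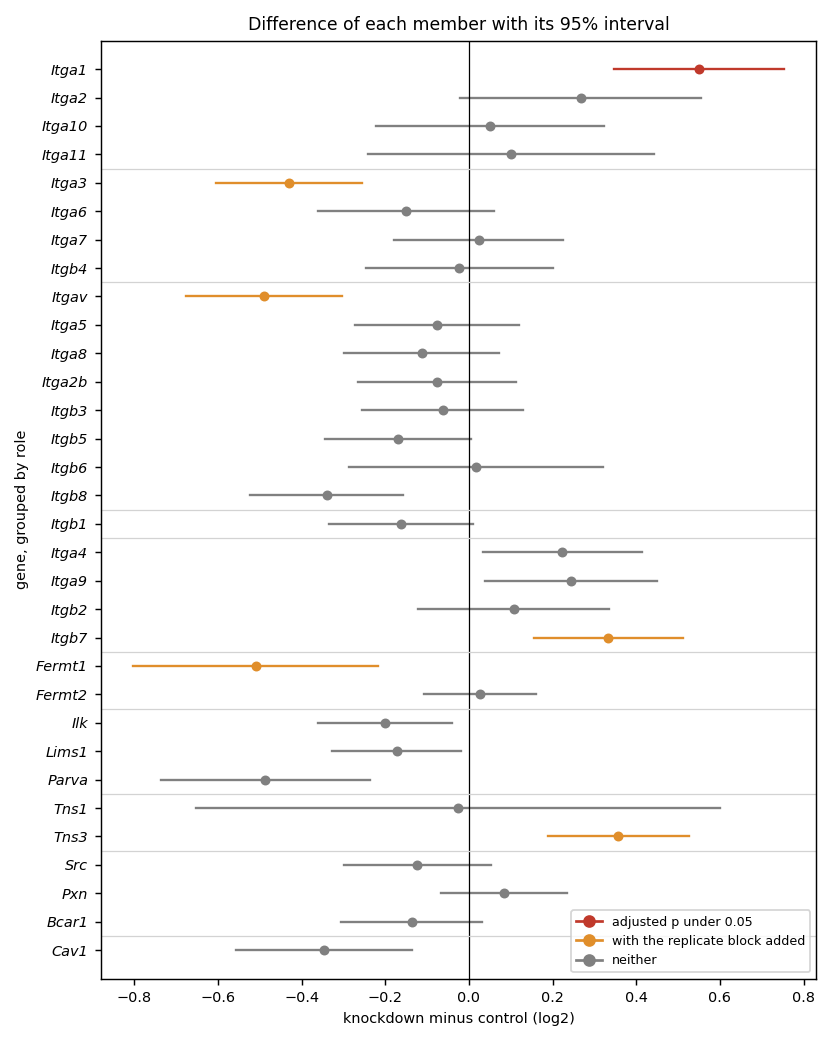
Knockdown minus control on the log2 scale (points) with the 95% interval of limma's fit (lines) for each of the 32 measured members, grouped by role. Itga1 at 0.55 is the one member past the threshold without the block, and Itgav, Itga3, Fermt1, Itgb7 and Tns3 passed when the block was added to that model.

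The promoters of the 6 members past the threshold with or without the block are printed to show how much they differ in CpG content, since methylated and oxidised cytosine lies mostly at CpG. Each is the 250 bases before the most upstream start in the RefSeq promoter table of GRCm38.p6, in the direction of the gene, with CG in capitals. Methylation was not measured in these samples.
Itga1, chr13:115101965-115102214, minus strand: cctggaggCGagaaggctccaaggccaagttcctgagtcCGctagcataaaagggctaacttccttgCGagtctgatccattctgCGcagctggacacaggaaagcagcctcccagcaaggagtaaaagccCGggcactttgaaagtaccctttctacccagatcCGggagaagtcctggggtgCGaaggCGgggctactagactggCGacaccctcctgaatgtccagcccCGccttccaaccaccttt
Itgb7, chr15:102231936-102232185, minus strand: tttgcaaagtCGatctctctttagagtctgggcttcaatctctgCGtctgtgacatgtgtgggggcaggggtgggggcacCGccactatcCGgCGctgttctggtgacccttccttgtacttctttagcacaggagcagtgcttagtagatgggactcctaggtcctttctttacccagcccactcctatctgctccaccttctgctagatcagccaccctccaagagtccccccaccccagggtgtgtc
Tns3, chr11:8664536-8664785, minus strand: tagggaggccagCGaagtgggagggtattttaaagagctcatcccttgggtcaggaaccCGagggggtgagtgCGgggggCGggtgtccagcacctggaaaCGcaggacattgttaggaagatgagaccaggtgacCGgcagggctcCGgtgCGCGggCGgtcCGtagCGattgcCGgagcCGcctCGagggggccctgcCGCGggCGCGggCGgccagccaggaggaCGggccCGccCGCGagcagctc
Itgav, chr2:83724147-83724396, plus strand: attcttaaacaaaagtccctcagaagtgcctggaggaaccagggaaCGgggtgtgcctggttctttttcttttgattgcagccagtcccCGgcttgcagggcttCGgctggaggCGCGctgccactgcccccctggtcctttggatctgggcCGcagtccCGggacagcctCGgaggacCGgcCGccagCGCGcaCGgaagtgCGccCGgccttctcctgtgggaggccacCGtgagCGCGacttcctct
Itga3, chr11:95076715-95076964, minus strand: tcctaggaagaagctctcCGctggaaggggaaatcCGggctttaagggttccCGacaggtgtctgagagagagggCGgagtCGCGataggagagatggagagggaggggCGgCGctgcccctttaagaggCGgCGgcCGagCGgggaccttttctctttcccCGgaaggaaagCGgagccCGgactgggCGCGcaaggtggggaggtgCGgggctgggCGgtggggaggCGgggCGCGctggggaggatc
Fermt1, chr2:132946037-132946286, minus strand: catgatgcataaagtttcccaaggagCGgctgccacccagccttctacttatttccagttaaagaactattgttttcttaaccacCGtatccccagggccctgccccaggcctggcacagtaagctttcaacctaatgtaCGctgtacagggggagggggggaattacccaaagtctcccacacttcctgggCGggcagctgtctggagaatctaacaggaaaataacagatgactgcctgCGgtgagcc

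These windows held 10 CpG for Itga1, 5 for Itgb7 and 24 for Tns3, the 3 with higher signal, and 18 for Itgav, 22 for Itga3 and 5 for Fermt1, the 3 with lower signal. The ranges of the higher and lower members overlapped. A promoter entry was found for 25 of the 32 members, whose windows held 2 to 40 CpG with a median of 12. Of these, 20 exceeded the median of 6 over all 32851 windows. Each member was read at its most upstream start only, whereas the 32851 windows hold every listed start of a gene. The motif shares below compare the same unlike sets. A GC box, read as GGGCGG on either strand, occurred in 13 of the 25 windows, against 32.7% of all windows. GGAATG, the core bound by TEAD factors, was found in 2, against 12.6% of all. TGANTCA, an AP-1 site, was found in none of the 25, against 6.75% of all. GC boxes contain CG and so overlap the capitals.

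In the wider adhesion pathway, 2 integrin ligands fell and no gene of the adaptor or membrane partner lists passed without the block. Across all named genes 0.552% were lower past the threshold without the block and 2.01% with it. Of 38 measured ligands, Thbs1 had 9.88, 10.00 and 9.86 in knockdown against 10.84, 10.82 and 10.79 in control cells, a difference of -0.90 (SE 0.07, adjusted p 0.00773). It encodes thrombospondin-1, a matrix protein that binds several integrins. Ccn1, which encodes a matrix protein bound by alphav and alpha6 integrins, had 10.31, 10.37 and 10.40 in knockdown against 11.03, 11.10 and 11.15 in control cells, a difference of -0.73 (SE 0.06, adjusted p 0.0113). For both genes the groups were far apart compared with the spread within them. With single arrays left out, 0 to 2 ligands passed, and those without any were the refits without knockdown replicate 1, control replicate 1 or control replicate 2. With the block 4 ligands fell, adding the laminin chain gene Lamb1 (-0.34, blocked adjusted p 0.0474) and Mfge8, whose product binds alphav integrins (-0.33, 0.0439). The ligand list had a median of -0.082, and 28 of its genes lay below 0 and 10 above it.

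Among 45 measured other focal adhesion genes the median was -0.033, with 17 above and 28 below 0, and none passed without the block (limma, 14 at an unadjusted p under 0.05, or 31.1%, against 12.5% of all genes). With the block 3 were lower and 1 higher, where 2.01% of all genes were lower and 1.07% higher. Lpp, a LIM protein of adhesion sites, had 10.13, 9.95 and 9.62 in knockdown against 10.94, 10.42 and 10.50 in control cells (-0.72, adjusted p 0.131, blocked 0.0246). Zyx, the gene of zyxin, differed by -0.37 (0.0907, blocked 0.0368), and Flnc, the gene of filamin C, by -0.38 (0.0699, blocked 0.0392). Parvg, the parvin of blood cells, was the one higher (0.33, 0.0845, blocked 0.0368). Within the parvin family, Parvb differed by 0.0067 (not past the threshold), beside -0.49 for Parva. The talin genes on the same list, whose products activate integrins beside the kindlins, differed by -0.16 for Tln1 and 0.033 for Tln2, and neither passed.

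The 27 genes of integrin activation, trafficking and membrane partners had a median of -0.057, with 8 above and 19 below 0, none past the threshold (limma) and 1 higher with the block, where 1.07% of all genes were higher. At an unadjusted p under 0.05 there were 4, or 14.8%, near the 12.5% of all genes. That gene was Lgals3, which encodes the sugar-binding galectin-3, with 9.27, 9.44 and 9.50 in knockdown against 8.96, 9.06 and 9.04 in control cells (0.38, adjusted p 0.0907, blocked 0.0355).

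**Figure D4:**
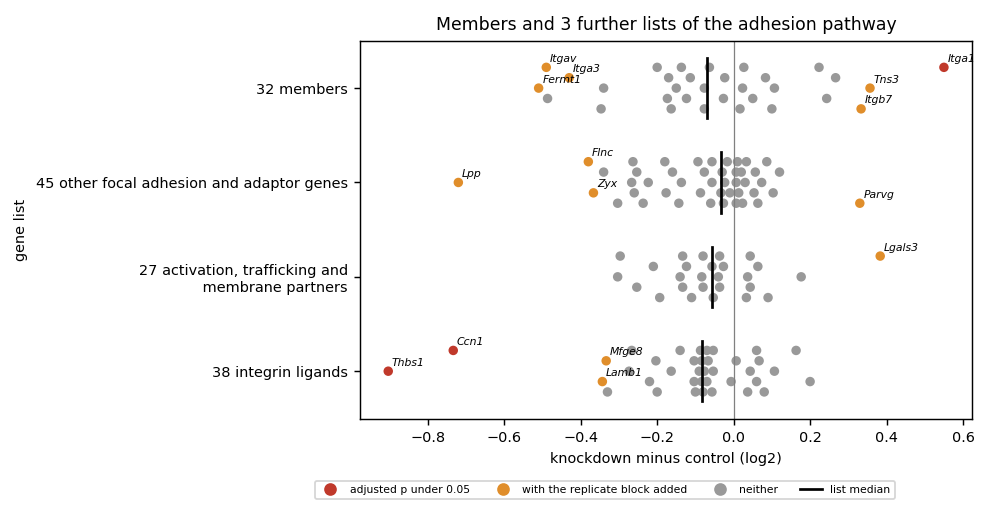
Differences of knockdown from control (log2) for the 32 members and for 45 other focal adhesion genes, 27 genes of activation and membrane partners and 38 integrin ligands, 1 point a gene, with the median of each list as a bar. The medians lie between -0.082 and -0.033, and Thbs1 and Ccn1 are the lowest points of all.

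Markers of other cell types were read beside these values. Of all named genes, 0.552% were lower past the threshold without the block and 2.01% with it. Of 6 smooth muscle markers 2 fell, Tagln (-0.88, adjusted p 0.0318) and Cnn1 (-0.62, adjusted p 0.0326), and the list's summed linear signal was 2425 to 2682 in knockdown and 3317 to 3638 in control arrays. In that list 4 markers lay below 0 and 2 above it, Myh11 (0.093) and Actg2 (0.14), neither past the threshold. Of 10 trophoblast markers, a list that includes keratins of simple epithelia, 1 fell, Krt19 (-0.83, adjusted p 0.0288), with sums of 5688 to 6186 in knockdown and 7143 to 7789 in control arrays. The sum rests mostly on Krt8 (-0.38) and Krt18 (-0.32), followed by Tfap2c (-0.12, not past the threshold) and then Krt19. Hand1 (0.32, adjusted p 0.311, no overlap) and Elf5 (0.17, adjusted p 0.761) lay above 0. No marker passed among 10 of fibroblasts or feeder cells, with sums of 1703 to 2071 in knockdown and 1723 to 1986 in control arrays. The same held for 10 of extraembryonic endoderm, with sums of 5724 to 6133 in knockdown and 6377 to 6777 in control arrays. That sum rests mostly on Sparc, which averaged 12.01 in knockdown and 12.21 in control cells, whereas 6 of the 10 endoderm markers lay above 0 and the list median was 0.08. With the block the 3 keratins named above and the endoderm marker Hnf4a (-0.46) were lower. The part of these markers in the members' differences was not tested, and fewer cells of a type and less RNA per cell cannot be told apart in bulk samples.

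**Figure D5:**
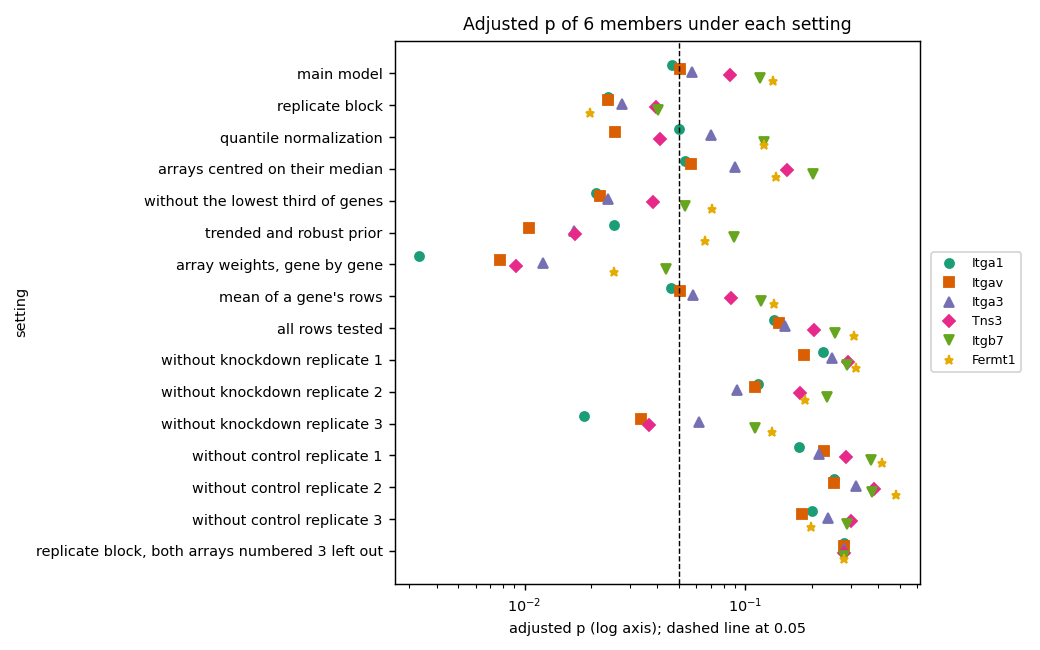
Adjusted p (horizontal log axis, dashed line at 0.05) of 6 members under the main model, each alternative setting and each refit without 1 array. All 6 lie left of the line with the replicate block, and all lie right of it when any single array but knockdown replicate 3 is left out.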

How the data were processed

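The authors deposited 1 log2 signal per probe set and array, and the submitters' processing notes name Affymetrix Expression Console, with values from 2.26 to 14.03. The log2 scale was read from that range. The sources used here do not state its version, summarisation or normalization. Of 35557 rows, the platform annotation gives 1 gene to 21789, several to 1621 and none to 12147, and 21698 were matched by gene identifier to RefSeq symbols of GRCm38.p6. The brightest row of each gene left 19938 named genes.

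Knockdown minus control was tested two-sided by the moderated fit of limma 3.58.1 (R 4.3.3) on all 6 arrays, with Benjamini-Hochberg adjustment over all named genes and a threshold of 0.05. An exact permutation test of 3 arrays against 3 cannot go below 0.1, and gave 0.1 for Tdg. The fit was checked on simulated data with independent noise for each gene and array. That check does not cover effects shared by arrays or across genes. Members, lists and tests were chosen with earlier results of these data known. All members were named, with pathway genes past the threshold with or without the block (or the 2 with the smallest p) and markers past it. Genes mentioned beyond these (Tln1, Tln2, Parvb, Pelo and the markers not past the threshold) were chosen after their values were seen. The grouping by role, from textbook knowledge, the members plotted by array and the promoter motifs were also chosen then.

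After subtraction of group means, arrays with equal numbers correlated at 0.61, 0.23 and 0.70 across genes. All exceeded 0.1, the mark set for pairing, so the replicate block was used as an alternative, while the main model held group only. However, knockdown replicate 2 correlated better with control replicate 1 (0.44). Control replicate 3 had -0.56 and -0.58 with knockdown replicates 1 and 2. Deviations of 3 arrays from their own mean are tied to each other, so these values cannot show that the arrays were paired. The alternatives were this block, quantile normalization, median centring, a filter on low levels, array weights, a trended and robust prior, averaging a gene's rows, testing all rows and leaving out each array. Array weights were planned with limma's default estimate, which did not converge, and were replaced by the gene-by-gene estimate after the default's counts had been seen. The number of arrays limits the precision.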

Additional observations from a re-analysis of the deposited data

How the results depend on the processing

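The count of called members depended on the setting. The signs of the 6 members called with or without the replicate block held in the alternatives given here. Most of these settings could not have changed them. The block, the trended prior, the filter on low levels and the test of all rows leave each difference as it was. Groups without overlap keep their sign when arrays are left out or weighted. Members past the threshold numbered 1 (1 higher, 0 lower) in the main model. They numbered 6 (3 higher, 3 lower) with the replicate block, 3 (2 and 1) with quantile normalization and 4 (2 and 2) without the genes of lowest signal. That filter also removed some members, Itga2, Itga4 and Itgb8 among them, so fewer were tested. The count was 5 (2 and 3) with a trended and robust prior and 9 (4 and 5) with gene-by-gene array weights. The planned default array weights did not converge and called 22 members and 8946 genes. The gene-by-gene estimate replaced them after these counts were seen, so it is no independent check. None passed with limma after median centring (12 at an unadjusted p under 0.05), with all rows tested (13) or with the replicate block and both arrays numbered 3 left out (12), a setting chosen after seeing the data. Over the refits without 1 array the count was 0 to 3 (0 to 2 higher, 0 to 1 lower): it was 3 without knockdown replicate 3 and 0 without any other array (9 to 15 at an unadjusted p under 0.05).

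All called genes numbered 158, against 614 with the block, 197 with quantile normalization and 118 after median centring. They numbered 444 without the genes of lowest signal, 446 with the trended prior, 1000 with array weights and 12 of the named genes with all rows tested. With the block and both arrays numbered 3 left out there were 0 (limma, 3092 at an unadjusted p under 0.05). Without single arrays there were 0 to 290. In the 3 refits with none, 1510 to 1959 genes had an unadjusted p under 0.05. Those were the refits without knockdown replicate 1, control replicate 1 or control replicate 2. The members' median of -0.07 was -0.11 with array weights and -0.11 to -0.042 without single arrays. Ligands past the threshold numbered 2, against 4 with the block, 4 without the genes of lowest signal, 5 with the trended prior, 4 with array weights, 1 with all rows tested, 0 with the block and both arrays numbered 3 left out, and 0 to 2 without single arrays. Other focal adhesion genes numbered 0, against 4 with the block, 1 with quantile normalization, 3 without the genes of lowest signal, 4 with the trended prior, 7 with array weights and 0 to 1 without single arrays. Membrane partners numbered 0, against 1 with the block, 1 without the genes of lowest signal, 1 with the trended prior and 2 with array weights.

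Signs turned for members close to 0: Itga11 was -0.069 with array weights and -0.09 with the block and both arrays numbered 3 left out, Itgb6 was -0.12 and -0.035 in these settings, and Tns1 was 0.0028 with quantile normalization. Without single arrays the ranges were -0.06 to 0.13 for Itga10, -0.067 to 0.23 for Itga11, -0.045 to 0.078 for Itga7, -0.12 to 0.0067 for Itgb3, -0.10 to 0.04 for Itgb4, -0.093 to 0.095 for Itgb6 and -0.32 to 0.195 for Tns1. The cause of these changes was not tested, except that fewer arrays, or more or fewer genes tested, change the adjustment by construction. Signal over background was not analysed, and 10 members had a mean below the array medians.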
